A study of Mus musculus with 2 samples.

Results

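The genes described here are 42 genes of protein folding in the endoplasmic reticulum (ER) and of the unfolded protein response. They were chosen by name, with earlier results of these data known. Of the 42 names, 40 were found as gene symbols in the annotation of the array, and Ero1l and Ero1lb were found under their current symbols, Ero1a and Ero1b. The array held probe sets of 18193 genes that carry exactly 1 symbol, and 11421 of these genes were measured, which means that the mean of the log2 signals over both arrays reached the mean of the log2 array medians. All 42 genes were measured, and both signals of each of them were at or above the median of their array.

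Secreted proteins such as insulin fold in the ER, where chaperones bind the nascent chain and disulfide isomerases join its cysteines. Chains that do not fold are drawn back to the cytosol and degraded, a process called ER-associated degradation (ERAD). When unfolded protein accumulates, the sensors ATF6, IRE1 and PERK start the unfolded protein response. ATF6 and the transcription factor XBP1, which IRE1 activates by splicing, induce chaperones and ERAD genes, whereas PERK slows translation and favors the transcription factor ATF4. Beta cells carry a high load of proinsulin. In the Akita mouse, a missense mutation of Ins2 causes proinsulin to misfold in the mouse's own beta cells.

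The tested sample was the graft of a hyperglycemic male recipient heterozygous for the Akita mutation, and it was compared with the graft of a normoglycemic WT C57BL/6 male recipient. In both cases 50 islets of WT C57BL/6 donors had been placed under the left kidney capsule, and the graft was taken 6 hours later. The transplanted islets therefore did not carry the Akita mutation in either sample. How many mice contributed to a sample, and their age, is not stated in the labels.

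Total RNA of each graft was hybridized to 1 Affymetrix MOE430 2.0 array, so no difference could be tested, and blood glucose cannot be told apart from genotype. The values are MAS5 signals, which are brightness values in arbitrary units, and ratios are those of the Akita recipient over the WT recipient. As a technical yardstick, the SD of the log2 ratio between the 2 brightest probe sets of 1 gene was 0.197 at signals above 4096, 0.222 at 1024 to 4096, 0.335 at 256 to 1024 and 0.612 at 64 to 256. Each SD is the root mean square of the difference between the 2 log2 ratios divided by the square root of 2. Pairs were binned by the signal of the dimmer probe set, whereas the yardstick was read at the signal of a gene's brightest probe set. This spread lies within the arrays and is no replicate error. The ratio of 3' to 5' signal, a sign of RNA quality, was 3.99 for Actb and 1.76 for Gapdh on the Akita array, against 3.54 and 1.30 on the WT array.

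The samples held cells other than islet cells. Ins2 had a signal of 88302 in the Akita recipient and 68738 in the WT recipient. Kap, a gene of the proximal tubule of the kidney, had 128500.0 in the Akita recipient and 89517 in the WT recipient. Their lists were not shifted in this way. Of 12 beta cell genes 6 were higher in the Akita recipient, with a median log2 ratio of 0.06. Of 17 proximal tubule genes 8 were higher, with a median of -0.02, where 44.7% of all measured genes were higher. The summed signal of 21 macrophage and monocyte genes was 180338 in the Akita recipient and 28867 in the WT recipient, and 20 of the 21 genes were over 2-fold higher. Of 16 genes of pancreatic acinar cells on the array, 12 were below the median of both arrays, among them Cpa1 at 37.7 in the Akita recipient and 15.6 in the WT recipient. Of 12 measured genes of endothelium 0 were higher, with a median log2 ratio of -0.42. Of 17 genes of other nephron segments 2 were higher, with a median of -0.59. In such mixed tissue, fewer cells of a type and less RNA per cell cannot be told apart. The part of the macrophage, endothelial and nephron signals in the values below was not tested.

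The 42 ER genes differed little between the grafts. None of the 42 was over 2-fold higher or over 2-fold lower in the Akita recipient, whereas 4.82% of all measured genes were over 2-fold higher and 2.71% were over 2-fold lower. Much of that background came from dimmer genes. Among the 8209 genes whose signals both reached 235, the lowest signal of any of the 42, 1.88% were over 2-fold higher and 0.914% were over 2-fold lower. At these rates few of 42 genes would be past 2-fold, so the count of 0 lies near the background.

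The ratios of the 42 genes were nevertheless placed slightly above those of other genes. Their median log2 ratio was 0.14, or 1.10-fold, with quartiles at -0.06 and 0.26, against a median of -0.06 with quartiles at -0.34 and 0.25 over all measured genes. Of the 42 genes, 27 were higher in the Akita recipient, whereas 44.7% of all measured genes were. A difference of this size cannot be separated from the spread between samples, because that spread was not measured. For 23 of the 42 genes the log2 ratio was smaller than 0.2 in size. Of all measured genes, 36.49% lay at or below -0.2 and 72.26% at or below 0.2, against 9.52% and 64.29% of the 42. The ratio of 18 genes was beyond 1 SD of the probe set yardstick, 15 of them higher and 3 lower. Only Sdf2l1, Hspa5, Dnajb9, Derl1 and Derl3 were beyond 2 SD. The shares of all measured genes beyond 1 SD and 2 SD were not computed, so these counts have no background beside them.

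**Figure D1:**
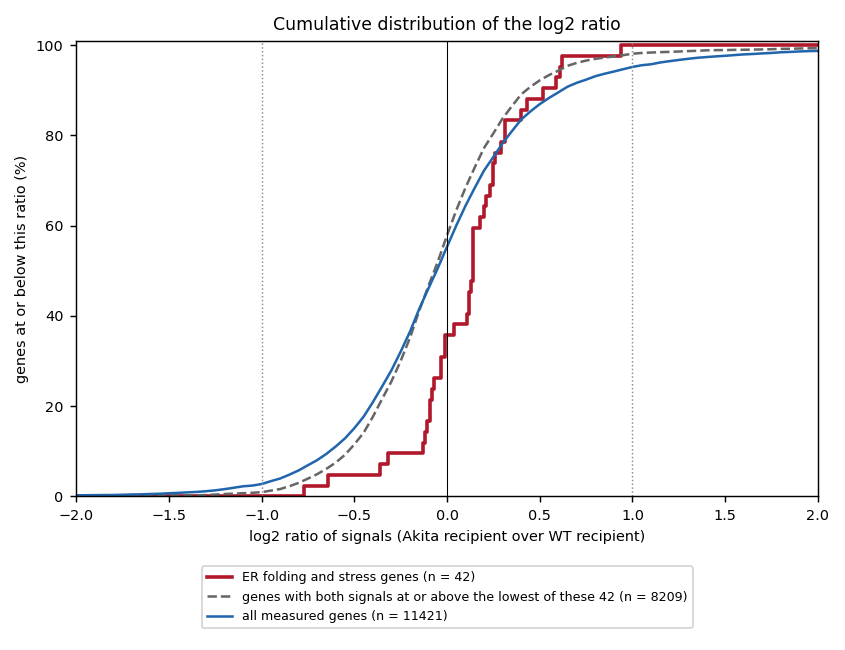
Cumulative share of genes (y axis, percent) at or below each log2 ratio of the Akita over the WT recipient (x axis) for the 42 ER genes, for 8209 genes of like signal and for all 11421 measured genes, with dotted lines at 2-fold. The curve of the 42 genes is steeper, lies to the right of the others around 0 and stays within the dotted lines.

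At a limit of 1.5-fold, 4 of the 42 genes were higher, where 10.9% of all measured genes were, and 2 were lower, where 11.6% of all measured genes were. Among the 8209 genes of like signal, 5.96% were higher by more than 1.5-fold and 7.98% were lower by more than 1.5-fold. As a share of the 42, the higher genes thus lay below all measured genes and above genes of like signal, and the lower genes lay below both. These differences were not tested. The 4 higher genes were Sdf2l1, Hspa5, Dnajb9 and Derl1. The 2 lower genes were Derl3 and Pdia5.

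**Figure D2:**
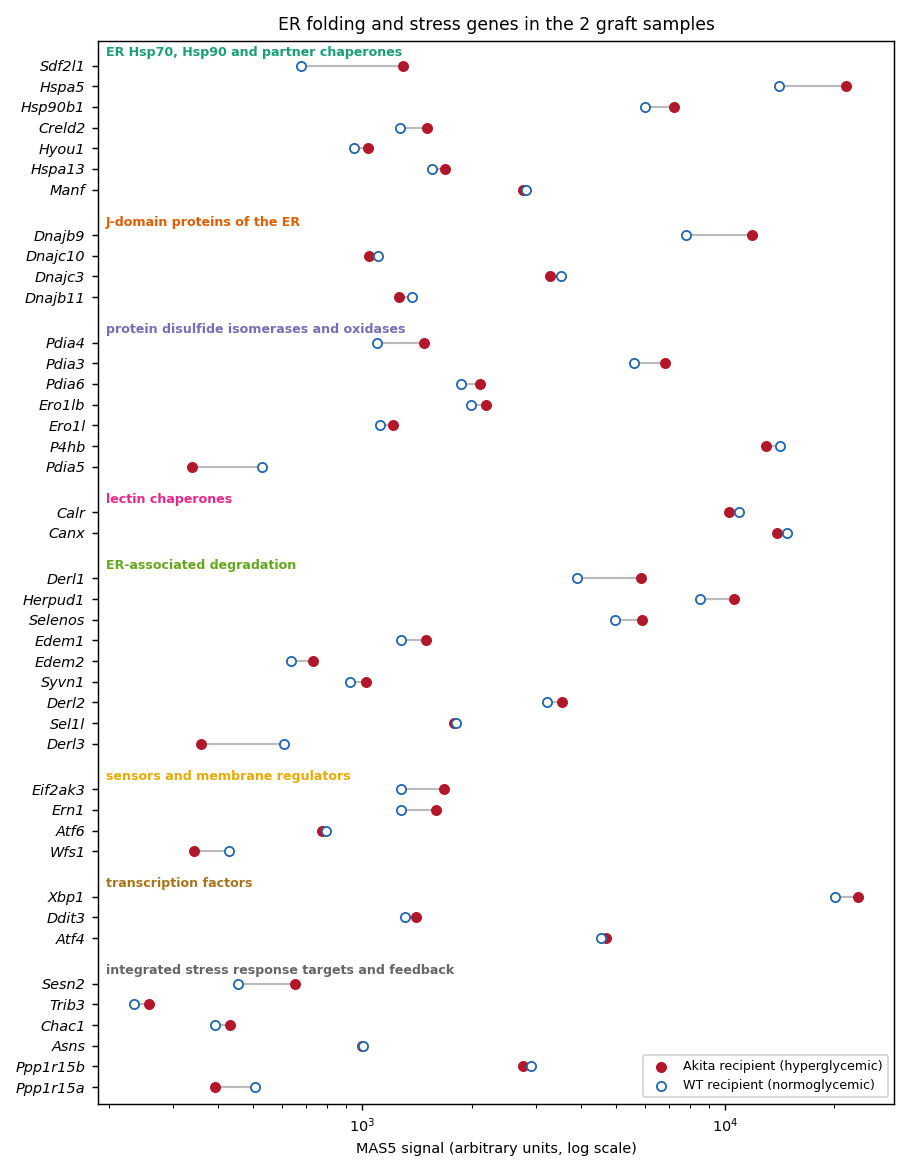
MAS5 signal (x axis, arbitrary units, log scale) of each of the 42 genes on its brightest probe set, grouped by role, with filled red points for the graft of the Akita recipient and open blue points for the graft of the WT recipient. The points of most genes nearly coincide, and the widest gap is that of Sdf2l1 (1297 in the Akita recipient and 676 in the WT recipient).

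The ER Hsp70 and Hsp90 chaperones and their partners had a median log2 ratio of 0.25, the highest of the roles, and 6 of the 7 genes were higher in the Akita recipient. Sdf2l1 forms complexes with J-domain partners of BiP. On its single probe set it had a signal of 1297 in the Akita recipient and 676 in the WT recipient. This 1.92-fold difference was the largest of the 42. Hspa5, which encodes the ER Hsp70 BiP, had a signal of 21594 in the Akita recipient and 14090.5 in the WT recipient (1.53-fold). BiP binds unfolded chains and holds the 3 stress sensors in their resting state, and its gene is the usual readout of the response. The second Hspa5 probe set had 10088 in the Akita recipient and 6975 in the WT recipient (1.45-fold), and the dimmest had 2089.9 in the Akita recipient and 1721 in the WT recipient (1.21-fold). All 3 therefore had the same direction.

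The other chaperones of this group differed less. Hsp90b1, the ER Hsp90 known as GRP94, had a signal of 7227 in the Akita recipient and 6029 in the WT recipient, a log2 ratio of 0.26, but its second probe set had a log2 ratio of only 0.01. Creld2, a disulfide isomerase-like partner induced by ER stress, had a signal of 1510.3 in the Akita recipient and 1271 in the WT recipient. Hyou1, a large Hsp70 that exchanges the nucleotide of BiP, and Hspa13, an Hsp70 of the microsomes, had log2 ratios of 0.13 and 0.12, less than 1 SD. Their dimmer measured probe sets differed from this, with -0.25 for Hyou1 and with -0.2 and 0.9 for Hspa13. For Manf, a secreted ER stress protein that protects beta cells, the signals were 2772 in the Akita recipient and 2822 in the WT recipient, a log2 ratio of -0.03.

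Several of these genes are known targets of ATF6 and XBP1, so their promoters were searched for the sequences that these factors and ATF4 are known to bind. The ER stress element (ERSE) was searched as CCAAT, any 9 bases and CCACG, ERSE-II as ATTGG, any 1 base and CCACG, the unfolded protein response element as TGACGTGG, and the C/EBP-ATF response element (CARE) as TGATG, any 1 base and AA, all on both strands. ATTGG is CCAAT read on the other strand, and ERSE and ERSE-II share CCACG. RefSeq promoters, 250 bases before to 50 bases after the start site in GRCm38.p6, were at hand for 36 of the 42 genes. Of these 36 genes, 10 held an ERSE, against 0.119% of 32851 promoters of all genes. ERSE-II was in 2 of the 36 genes and in 0.0365% of all promoters, and CARE in 4 of the 36 genes and in 3.97% of all promoters. TGACGTGG was in 0 of the 36 genes and in 0.676% of all promoters. A match describes the sequence and is not a binding site. Hspa5 and Hsp90b1 are among the genes in which ERSE was first described.

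The following stretches show the elements, in capitals, with 15 flanking bases on either side, for genes that span the range of ratios. All run 5′ to 3′ along the gene, so an element on the opposite strand reads as its reverse complement, which for ERSE starts with CGTGG and ends with ATTGG.
Hspa5 ERSE, chr2:34772010-34772058, plus strand: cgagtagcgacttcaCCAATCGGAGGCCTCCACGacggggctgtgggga
Hsp90b1 distal ERSE, chr10:86705623-86705671, minus strand: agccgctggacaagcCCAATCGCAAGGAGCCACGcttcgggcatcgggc
Hsp90b1 proximal ERSE, opposite orientation, chr10:86705518-86705566, minus strand: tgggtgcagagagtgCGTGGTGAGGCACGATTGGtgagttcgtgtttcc
Creld2 ERSE, opposite orientation, chr15:88819505-88819553, plus strand: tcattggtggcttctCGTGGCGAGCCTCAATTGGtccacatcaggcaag
Dnajc3 ERSE, chr14:118937812-118937860, plus strand: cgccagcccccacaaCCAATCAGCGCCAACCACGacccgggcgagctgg
Derl3 ERSE, opposite orientation, chr10:75893227-75893275, plus strand: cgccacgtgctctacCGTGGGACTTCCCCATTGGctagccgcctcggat
Herpud1 ERSE-II, chr8:94386362-94386402, plus strand: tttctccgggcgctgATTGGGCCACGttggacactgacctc
Herpud1 CARE, opposite orientation, chr8:94386302-94386339, plus strand: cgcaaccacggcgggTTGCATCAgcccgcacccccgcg
Asns CARE, chr6:7693210-7693247, minus strand: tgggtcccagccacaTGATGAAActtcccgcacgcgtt
Chac1 CARE, opposite orientation, chr2:119351034-119351071, plus strand: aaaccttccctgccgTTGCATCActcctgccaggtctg

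Genes with and without the ER stress elements had the same median ratio. The 12 genes with an ERSE or ERSE-II had a median log2 ratio of 0.14, from -0.77 for Derl3 to 0.62 for Hspa5, and 7 of the 12 were higher in the Akita recipient. The 24 genes whose promoter window held neither also had a median of 0.14, from -0.64 to 0.94, and 17 of the 24 were higher. Derl3 and Hspa5 thus carry the same element and had the lowest and the second highest ratio of the 42 genes. Herpud1 was the only one of the 36 with an element of both kinds, an ERSE-II and a CARE. The absence of a match says only that these letters are not in this window, and the window of Sdf2l1, the gene with the highest ratio, held none of the 4 searched elements.

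**Figure D3:**
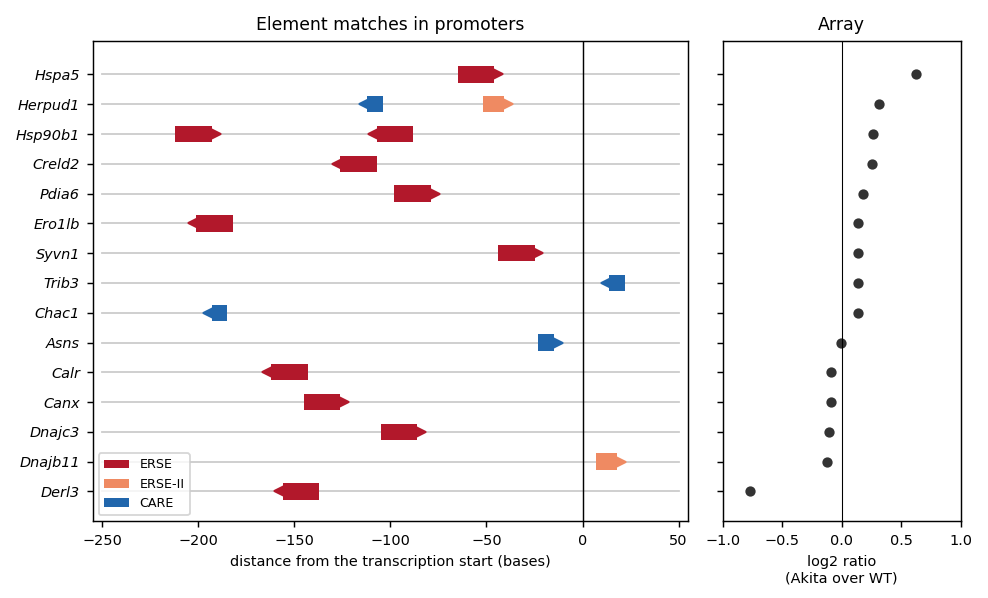
Matches to ERSE, ERSE-II and CARE in the promoters of 15 genes (left panel, x axis: distance from the transcription start in bases; arrowheads point along the strand of the element) and the log2 ratio of the Akita over the WT recipient for the same genes (right panel). Elements occur in genes on both sides of a ratio of 0, from Hspa5 (0.62) to Derl3 (-0.77).

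J-domain proteins recruit substrates to BiP. Dnajb9 encodes ERdj4, a J-domain protein that is strongly induced in ER stress and returns the sensor IRE1 to rest. On its single probe set Dnajb9 had a signal of 11866 in the Akita recipient and 7781 in the WT recipient (1.53-fold). The other 3 J-domain genes were slightly lower. Dnajb11 (ERdj3) had a signal of 1263 in the Akita recipient and 1373 in the WT recipient. Dnajc3, which encodes p58IPK, an inhibitor of PERK, had a signal of 3279.8 in the Akita recipient and 3529.7 in the WT recipient, and Dnajc10 (ERdj5), a disulfide reductase of ERAD, had a log2 ratio of -0.08. All 3 were within 1 SD, and the log2 ratio of Dnajc10 turned positive after loess correction.

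The disulfide isomerases and their oxidases had a median log2 ratio of 0.14, with 5 of 7 genes higher. Pdia4 (ERp72) had a signal of 1475 in the Akita recipient and 1096 in the WT recipient (1.35-fold), the highest ratio of this role. Pdia3 (ERp57), which works with calreticulin and calnexin, had a signal of 6832 in the Akita recipient and 5603 in the WT recipient (1.22-fold). Its second probe set was dim and went the other way, with 46.0 in the Akita recipient and 221 in the WT recipient. Pdia6, with a log2 ratio of 0.18, and the oxidases Ero1l and Ero1lb, which hand oxidizing equivalents to the isomerases, with 0.12 and 0.14, were within 1 SD.

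P4hb, the founding member of the family, was nearly equal, with a signal of 12976 in the Akita recipient and 14188 in the WT recipient. Pdia5 was the exception. It had a signal of 339 in the Akita recipient and 528 in the WT recipient (1.56-fold lower), on its single probe set. The lectin chaperones calreticulin and calnexin, which hold glycoproteins until they are folded, were also nearly equal. Calr had a signal of 10234 in the Akita recipient and 10904 in the WT recipient, with log2 ratios between -0.12 and -0.09 on its 3 probe sets. Canx had a signal of 13898 in the Akita recipient and 14786 in the WT recipient, and its other probe sets had log2 ratios of 0.15 and -0.35.

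Among the ERAD genes, 7 of 9 were higher in the Akita recipient, with a median log2 ratio of 0.20. Derl1, a subunit of the channel for retrotranslocation, had a signal of 5865 in the Akita recipient and 3909 in the WT recipient, a log2 ratio of 0.59. That value rests on 1 probe set, since the other 3 had log2 ratios from -0.15 to 0.30. Herpud1, a ubiquitin-like scaffold of the ERAD complex, had a signal of 10555 in the Akita recipient and 8515 in the WT recipient (1.24-fold), and its second probe set gave a log2 ratio of 0.37. Edem1, a lectin that delivers glycoproteins to ERAD, had a signal of 1498 in the Akita recipient and 1281 in the WT recipient (1.17-fold), and its second probe set gave 0.21. These 2 genes had the same direction on both of their probe sets.

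Selenos, which anchors the ATPase p97 to the ER membrane, had a log2 ratio of 0.25, Edem2 of 0.20, and Derl2 and the ubiquitin ligase Syvn1 (HRD1) of 0.14 each. The other probe sets of Selenos had 0.4 and -0.16. Sel1l, the partner of HRD1, was equal in both grafts within the yardstick, with 1792 in the Akita recipient and 1811 in the WT recipient. Derl3, a derlin found mainly in secretory cells, was the lowest of the 42 genes, with 358 in the Akita recipient and 609 in the WT recipient (1.70-fold lower), on its single probe set. Derl3 is known to be abundant in pancreatic acinar cells and plasma cells. The 16 acinar genes on the array, of which 3 were measured, had a summed signal of 15590 in the Akita recipient and 18693 in the WT recipient. Nearly all of it came from the elastase gene Cela1 (14624 in the Akita recipient and 18162 in the WT recipient). The sum therefore does not show the direction of the other acinar genes. Of the other measured ones, Cela3b was higher, with 288 in the Akita recipient and 124 in the WT recipient. Prss2 was lower, with 88.5 in the Akita recipient and 141 in the WT recipient. The 11 genes of plasma cells and B cells on the array had a summed signal of 1796 in the Akita recipient and 888 in the WT recipient. Only 3 of the 11 were measured, and they differed in direction. Ms4a1 had 435 in the Akita recipient and 63.3 in the WT recipient, and Mzb1 had 253 in the Akita recipient and 151 in the WT recipient. The syndecan Sdc1 was lower, with 226 in the Akita recipient and 426 in the WT recipient. The part of these cells in the value of Derl3 was not tested.

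Of the sensors, Eif2ak3, which encodes PERK, had a signal of 1678 in the Akita recipient and 1274 in the WT recipient (1.32-fold), and Ern1, which encodes IRE1 alpha, had 1590.2 in the Akita recipient and 1281 in the WT recipient (1.24-fold). Both were beyond 1 SD of the yardstick on their brightest probe set. The second measured probe set of Ern1 had a log2 ratio of -0.16. Atf6 had a signal of 775 in the Akita recipient and 791 in the WT recipient, and the sign of its small difference turned under 3 of the scalings. Its other measured probe sets had log2 ratios of 0.15 and, on the dimmest, -0.85. Wfs1, an ER membrane protein of beta cells that restrains ATF6, had a signal of 343 in the Akita recipient and 429 in the WT recipient (1.25-fold lower), within 1 SD. The sensors are activated as proteins, so their transcript levels do not show whether they were active.

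The transcription factor genes were close to equal. Xbp1 had a signal of 23264 in the Akita recipient and 20141 in the WT recipient (1.16-fold), and its 4 probe sets had log2 ratios from 0.09 to 0.40. The annotation used here does not tell the spliced from the unspliced form. Atf4 had a signal of 4683 in the Akita recipient and 4550.2 in the WT recipient, and Ddit3, which encodes the proapoptotic factor CHOP, had 1409 in the Akita recipient and 1309.9 in the WT recipient. A dimmer Atf4 probe set gave 1178 in the Akita recipient and 716 in the WT recipient, a log2 ratio of 0.72 against 0.04 on the brightest. ATF4 is controlled mainly by translation, which an array does not measure.

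Targets and feedback genes downstream of PERK and ATF4 had a median log2 ratio of 0.06, with 3 of 6 higher. Asns, asparagine synthetase, whose promoter carries a CARE, had a signal of 996 in the Akita recipient and 1001 in the WT recipient. Chac1, which degrades glutathione, had 431 in the Akita recipient and 392 in the WT recipient, and Trib3, a pseudokinase that inhibits ATF4 and AKT, had 258 in the Akita recipient and 235 in the WT recipient. Both differences were within 1 SD. The direction of Trib3 was opposite on its other probe set, with a log2 ratio of -0.31.

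Ppp1r15a (GADD34), the inducible subunit of the phosphatase that reverses the block of translation, had a signal of 393 in the Akita recipient and 505 in the WT recipient (1.29-fold lower). Its constitutive counterpart Ppp1r15b had 2773 in the Akita recipient and 2908 in the WT recipient on its brightest probe set, but 162 in the Akita recipient and 54.0 in the WT recipient on the other. Sesn2, a stress-induced sestrin that inhibits mTORC1, had 653 in the Akita recipient and 454 in the WT recipient (1.44-fold), the highest ratio of these 6 genes. Its other probe set had 203 in the Akita recipient and 249 in the WT recipient. On their brightest probe sets, 0 of these 6 genes were past 1.5-fold in either direction, where 10.9% of all measured genes were higher and 11.6% lower by that much.

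The probe sets of 1 gene often disagreed at this size of difference. The 42 genes had 99 probe sets in all, of which 86 were measured. Of the 26 genes with 2 or more measured probe sets, 11 had the same direction on all of them, such as Hspa5, Herpud1, Xbp1, Ero1l and, on the lower side, Calr. Among the 86 measured probe sets, 2 were past 2-fold, the dim ones of Pdia3 and Ppp1r15b named above. Among the 13 dimmer ones, 9 were past 2-fold, such as those of Eif2ak3 with 61.7 in the Akita recipient and 3.06 in the WT recipient and of Hspa13 with 7.83 in the Akita recipient and 66.8 in the WT recipient. No fold is given for these, since at least 1 of the signals lies far below the array medians of 91.5 in the Akita recipient and 82.9 in the WT recipient.

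**Figure D4:**
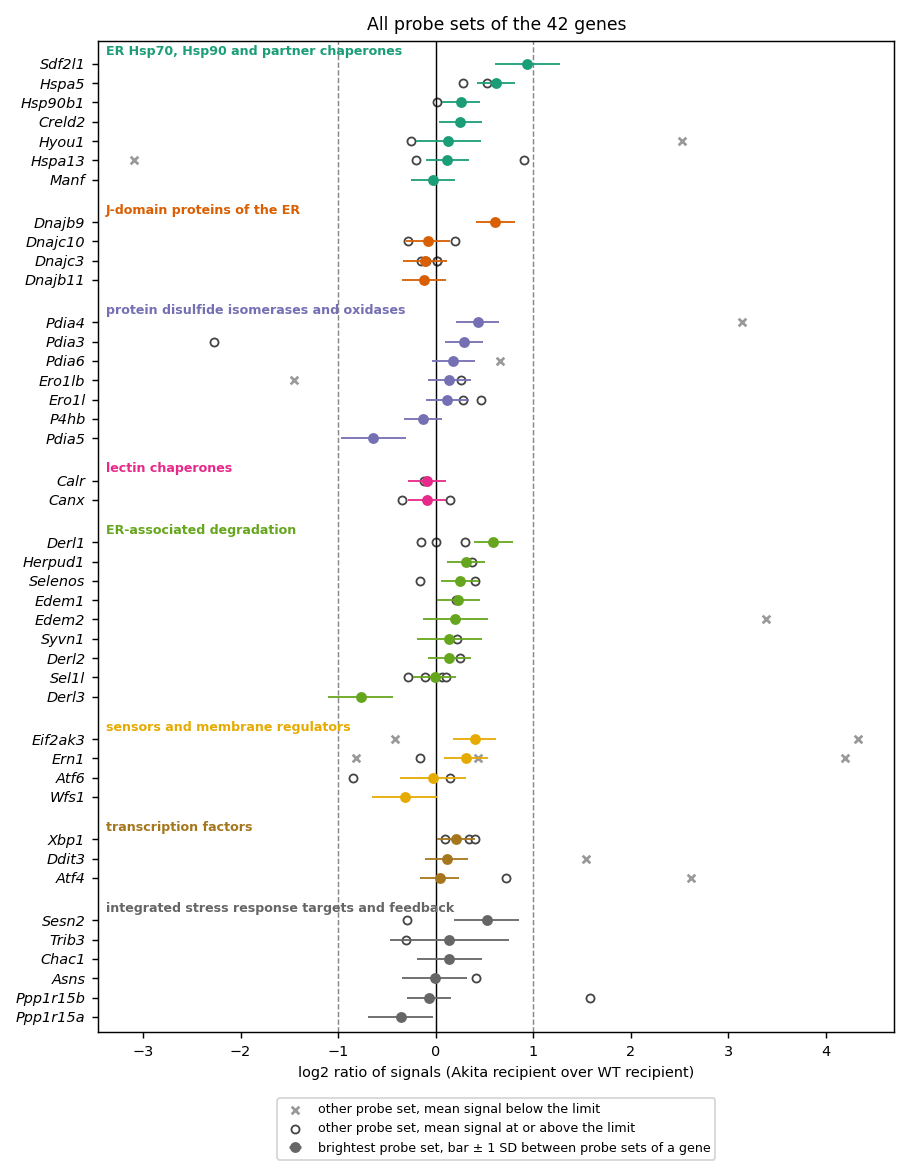
Log2 ratio of the Akita over the WT recipient (x axis) on every probe set of the 42 genes, with the brightest probe set filled, other measured probe sets open dimmer ones as crosses, dashed lines at 2-fold, and bars of 1 SD between probe sets of 1 gene at that signal, which is no replicate error. All filled points lie within the dashed lines, and those past them are crosses, except the open points of Pdia3 (-2.27) and Ppp1r15b (1.58).

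Other genes of the same organelle and pathways were compared with the 42. They were listed from general knowledge, also with earlier results of these data known. Of 35 further measured genes of ER folding and glycan trimming, 15 were higher and 0 were past 2-fold, with a median log2 ratio of -0.09. Of 27 further ERAD genes, 7 were higher and 0 were past 2-fold, with a median of -0.16, while 2 were higher and 2 lower by more than 1.5-fold. Tmub1, a membrane ubiquitin-like protein, had the largest ratio of these, with 226 in the Akita recipient and 120.1 in the WT recipient (1.88-fold). Rnf5, an ER ubiquitin ligase, had a signal of 1726 in the Akita recipient and 2953 in the WT recipient (1.71-fold lower). Of 21 genes of the translocon and signal peptidase, 11 were higher, with a median of 0.15. The 1 gene of these past 1.5-fold was Sec61b, a subunit of the translocon, with 6014 in the Akita recipient and 9287 in the WT recipient (1.54-fold lower). These medians lie on both sides of the median of -0.06 over all measured genes, and no difference between the lists was tested. After loess correction the median of the further ER folding genes was 0.00.

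Of 21 other stress sensors and ER stress transcription factors, 9 were higher, with a median of -0.09 (0.00 after loess correction), and the 1 past 2-fold was Atf6b, a relative of ATF6, with 290.2 in the Akita recipient and 126 in the WT recipient (2.31-fold). Of 38 further genes linked to ATF4 and CHOP, 20 were higher, with a median of 0.02, or -0.04 when centered on beta cell genes. Nupr1, a stress-induced chromatin protein, had 852 in the Akita recipient and 354 in the WT recipient (2.40-fold). Psat1 and Phgdh, 2 enzymes of serine synthesis, lay on the other side. Psat1 had 984 in the Akita recipient and 2381 in the WT recipient (2.42-fold lower), and Phgdh had 647 in the Akita recipient and 1536 in the WT recipient (2.37-fold lower). The other probe sets of Phgdh were within 2-fold, with log2 ratios of -0.85, -0.78 and 0.02. These 3 were the genes of this list past 2-fold, and at 1.5-fold 5 genes were higher and 3 lower. The background shares over the 11421 measured genes were 4.82% upward and 2.71% downward at 2-fold. At 1.5-fold they were 10.9% upward and 11.6% downward. For a list of 38 genes, the counts lay near these shares. Among the 8209 brighter genes described above, the 2-fold shares were smaller, at 1.88% upward and 0.914% downward. No difference from either background was tested.

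**Figure D5:**
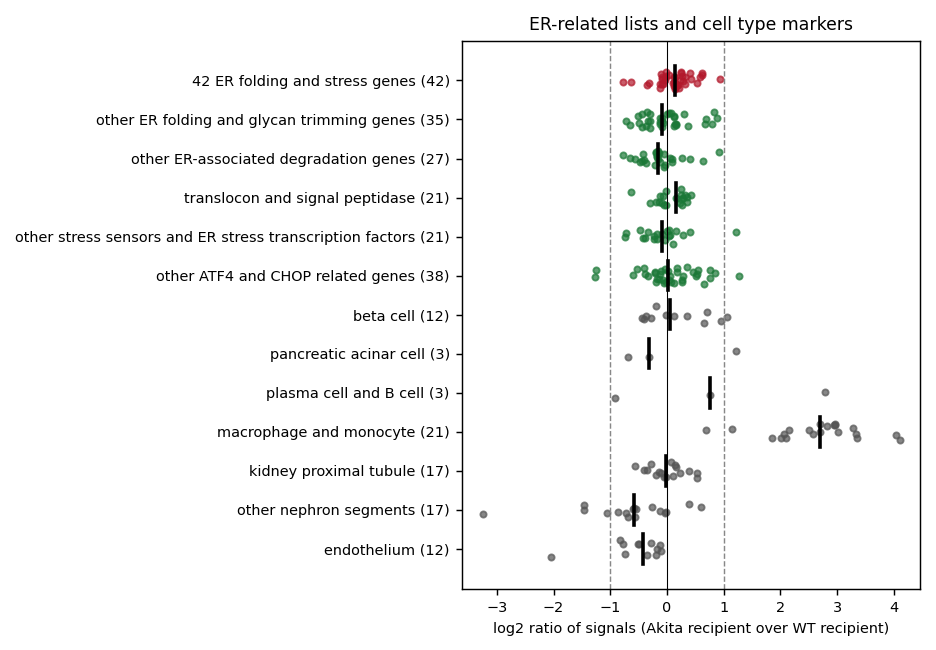
Log2 ratio of the Akita over the WT recipient (x axis) of each measured gene in the 42 ER genes (red), 5 further ER and stress lists (green) and 7 lists of cell type markers (grey), with the number of genes in brackets, black bars at the medians and dashed lines at 2-fold. The ER lists center near 0, with medians from -0.16 to 0.15, whereas macrophage and monocyte genes center at 2.69 and genes of other nephron segments at -0.59.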

How the data were processed

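RNA of 1 graft sample per condition was measured on 1 Affymetrix MOE430 2.0 array each. The authors deposited a table of intensities made with MAS5, linear and for 45101 probe sets, 64 of them controls. The version and scaling settings of MAS5 are not named in the labels or methods, and the values were taken as deposited. The authors' methods name the Subio Platform with no settings. Genes came from the platform annotation, where a probe set has exactly 1 symbol. The probe set brightest on average over both arrays (log2 scale) stood for its gene. A gene was regarded as measured at a mean signal of 87.1 or more, the geometric mean of both array medians. With 1 array per condition the number of arrays limits the precision, and no p-value was computed. The 42 genes and all lists were chosen with earlier results of these data known. All 42 genes were open to naming. Of each further ER list the 3 genes with the largest log2 ratio in size could be named, provided neither signal was below its array median, and of each marker list the 3 brightest. Cpa1 falls outside this rule and was named after its values were seen. The calculation was tested on simulated data. Alternatives were median centering, quantile normalization, loess (span 0.3, 3 iterations), centering on beta cell genes, floors, 100 added to both signals, other filters, other choices of probe set and a limit of 1.5-fold. Of 18 hybridization controls, the median ratio of the Akita over the WT array was 1.91, close to the largest fold of the 42 genes (1.92). No alternative scaled the arrays on these controls. Such a scaling would divide every ratio by 1.91. Of the 42 genes only Sdf2l1 would then stay above a ratio of 1, and several, such as Derl3 and Pdia5, would be over 2-fold lower. The counts of genes higher, lower and past 2-fold thus depend on the scaling. All measured genes would shift alike, so the place of the 42 among them would not change. Promoter sequences came from RefSeq (GRCm38.p6). Calculations used pandas 2.3.3, numpy 2.4.6, statsmodels 0.14.6 (loess) and scipy 1.17.1 under Python 3.11.15, and plots matplotlib 3.10.9.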

Additional observations from a re-analysis of the deposited data

How the results depend on the processing

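There were 13 alternatives, 1 of them (the median over a gene's measured probe sets) chosen after seeing the data. The median log2 ratio of the 42 genes stayed between 0.08, when centered on beta cell genes, and 0.21, after loess correction. Of the 42 genes, 26 to 32 were higher in the Akita recipient. The share of all genes that were higher moved too, from 38.9% when centered on beta cell genes to 50.7% after loess correction. The median of the 42 lay above that of all genes by 0.16, with 100 added to both signals, to 0.21, after quantile normalization. No alternative put a gene over 2-fold lower at the 2-fold limit. The count over 2-fold higher was 1 after loess correction (Sdf2l1, a log2 ratio of 1.04), 1 when probe sets that can bind several transcripts were left out (Ppp1r15b, 1.58) and 2 when a gene took the median over its probe sets, dim ones included (Pdia4, 1.78, and Edem2, 1.79). In the same order, 5.16%, 5.03% and 6.64% of all measured genes were over 2-fold higher. With a limit of 1.5-fold, 4 genes were higher and 2 lower. The median of each role kept its sign under median centering, quantile normalization, loess correction and centering on beta cell genes. Of the single genes, 29 kept their sign under all of these alternatives, none of which scaled the arrays on the hybridization controls. The sign of the other 13 turned under at least 1 alternative, and the largest of these in size was Derl1 (0.59), which was -0.15 without probe sets that can bind several transcripts. Median centering moved all log2 ratios by the 0.06 that separates the median of all measured genes from 0. Precision is limited by 1 array per condition, and below a signal of 256 the SD of the probe set yardstick was 0.612 or more on the log2 scale.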
